A study of Rattus norvegicus with 10 samples.

Results

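Serotonin and noradrenaline released in the spinal cord act through a set of receptors, and 10 of their genes were followed here in the lumbar enlargement of morphine-tolerant and saline-treated rats: Htr1a, Htr1b, Htr1d, Htr2a, Htr2c, Htr3a and Htr7 for serotonin, and Adra1a, Adra2a and Adra2c for noradrenaline. The genes were chosen by name, and their probes were those whose RefSeq mRNA accession belongs to the gene. Of the 15323 mRNA probes of the array, 9 of the 10 genes had a probe, each with 1 spot per array. Adra2a was not analysed here. In 7 of the 9 genes the signal cleared the background on 5 or more arrays, and Htr1b and Htr1d fell short of that.

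The rats were male Sprague Dawley animals of 240 to 260 g. The 5 rats of the MT group (morphine tolerance, rats 1 to 5) were given intrathecal morphine, 10 µg in 10 µl, over 7 days with 2 injections on each, and the 5 rats of the NS group (normal saline, rats 6 to 10) had 10 µl of saline on the same schedule. According to the study's methods the tissue was taken on the following day, after a further morning injection, so the MT cord had met morphine shortly before collection as well as during the week. The RNA was that of the whole lumbar enlargement, with dorsal and ventral horn together, and 1 single-colour array was made per rat. In such tissue, fewer cells of a type and less RNA per cell cannot be told apart.

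Serotonin reaches the cord from the raphe nuclei of the brainstem, and noradrenaline from the locus coeruleus and neighbouring pontine groups. Both can hold back or promote the passage of pain signals through the dorsal horn, depending on which receptor they meet. Htr1a, Htr1b, Htr1d, Adra2a and Adra2c couple to inhibitory G proteins, Htr2a, Htr2c and Adra1a raise intracellular calcium through phospholipase C, Htr7 stimulates adenylyl cyclase, and Htr3a forms a ligand-gated cation channel. The alpha-2 receptors are the targets of spinal clonidine, which is used alongside opioids in pain treatment. The cell bodies of the brainstem neurons lie outside the sampled tissue.

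Promoter sequences from RefSeq on build GRCr8 were at hand for 6 of the 10 genes, Htr1b, Htr1d, Htr2c, Htr7, Adra2a and Adra2c. Those of Htr2c and Adra2c are shown because these receptors had the narrowest intervals for the MT against NS difference. Each is the 250 bases before the annotated start, in the direction of the gene, and capitals mark matches on either strand to CCAAT (the CCAAT box) or GGGCGG (the GC box).

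Htr2c, chrX:115452940-115453189, plus strand: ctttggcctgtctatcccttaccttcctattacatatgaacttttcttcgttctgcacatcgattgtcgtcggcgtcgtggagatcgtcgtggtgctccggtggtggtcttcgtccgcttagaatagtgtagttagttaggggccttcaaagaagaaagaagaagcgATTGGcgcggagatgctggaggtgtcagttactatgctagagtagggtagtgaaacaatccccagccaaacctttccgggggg

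Adra2c, chr14:79697477-79697726, minus strand: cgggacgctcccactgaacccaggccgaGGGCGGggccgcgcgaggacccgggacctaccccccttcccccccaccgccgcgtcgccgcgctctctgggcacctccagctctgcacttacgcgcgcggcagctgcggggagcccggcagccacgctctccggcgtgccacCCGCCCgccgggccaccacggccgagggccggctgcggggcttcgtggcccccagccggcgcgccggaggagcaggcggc

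The Htr2c window was 50.4% G and C with 15 CpG dinucleotides and held 1 CCAAT box and no GC box. The Adra2c window was 80.4% G and C with 36 CpG, a number that 98.1% of all promoters do not exceed, and held 2 GC boxes and no CCAAT box. Of 33465 rat promoter windows of the same length, 34% held a CCAAT box and 30.5% a GC box. Neither window held TATAAA (12.9% of all windows) or TGACGTCA (1.59%), the letters of the TATA box and of the cyclic AMP response element, searched on both strands. The Htr7 window was the richest in CpG of the 6, with 38, and held none of these motifs.

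The share of spots well above background was 81.1% to 83.9% on the MT arrays and 58.6% to 79.6% on the NS arrays, with NS9 and NS8 lowest at 58.6% and 63.8%. The array headers gave 3 scan times. Scan set 1 held MT1, MT3, MT4 and MT5, scan set 2 held MT2, NS6, NS7 and NS10, and scan set 3 held NS8 and NS9. Only scan set 2 held both groups, so outside it the treatment and the scan cannot be told apart. Within the NS group, 23% of 20254 RNAs differed more than 1.5-fold between the means of scan sets 3 and 2, and results are therefore given also without scan set 3 and with the scan set as a block. The markers measured for neurons, inhibitory dorsal horn neurons, oligodendrocytes and astrocytes were well above background on all 10 arrays, as the tissue label requires. Of the motor neuron markers, Slc5a7 and Slc18a3 were well above background on all 10 arrays and Isl1 on 8. Of the brainstem markers, Dbh, the enzyme that makes noradrenaline, was well above background on 0 arrays, and Slc6a4, the serotonin transporter, on 4. Slc6a2, the noradrenaline transporter, was well above background on 8 arrays, and Tph2 and Fev, an enzyme and a transcription factor of serotonin neurons, on all 10.

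The study's criteria were read here as a linear fold above 1.5 with an unadjusted limma P below 0.05. None of the 7 receptors tested passed them, against 2.73% of all 20259 RNAs tested. None reached an unadjusted limma P below 0.05 (16.4% of all RNAs) or a Benjamini-Hochberg limma adjusted p below 0.05 (0.197% of all RNAs). In none did the MT and NS values separate without overlap, which 5.61% of 20196 RNAs did. The log2 fold changes, MT minus NS, ran from −0.20 for Htr2c to 0.51 for Adra1a with a median of 0.03, beside −0.001 over all RNAs. The 95% intervals were not equally informative. That of Adra2c lay between folds of 0.920 and 1.13, whereas that of Adra1a reached from 0.917 to 2.21.

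**Figure D1:**
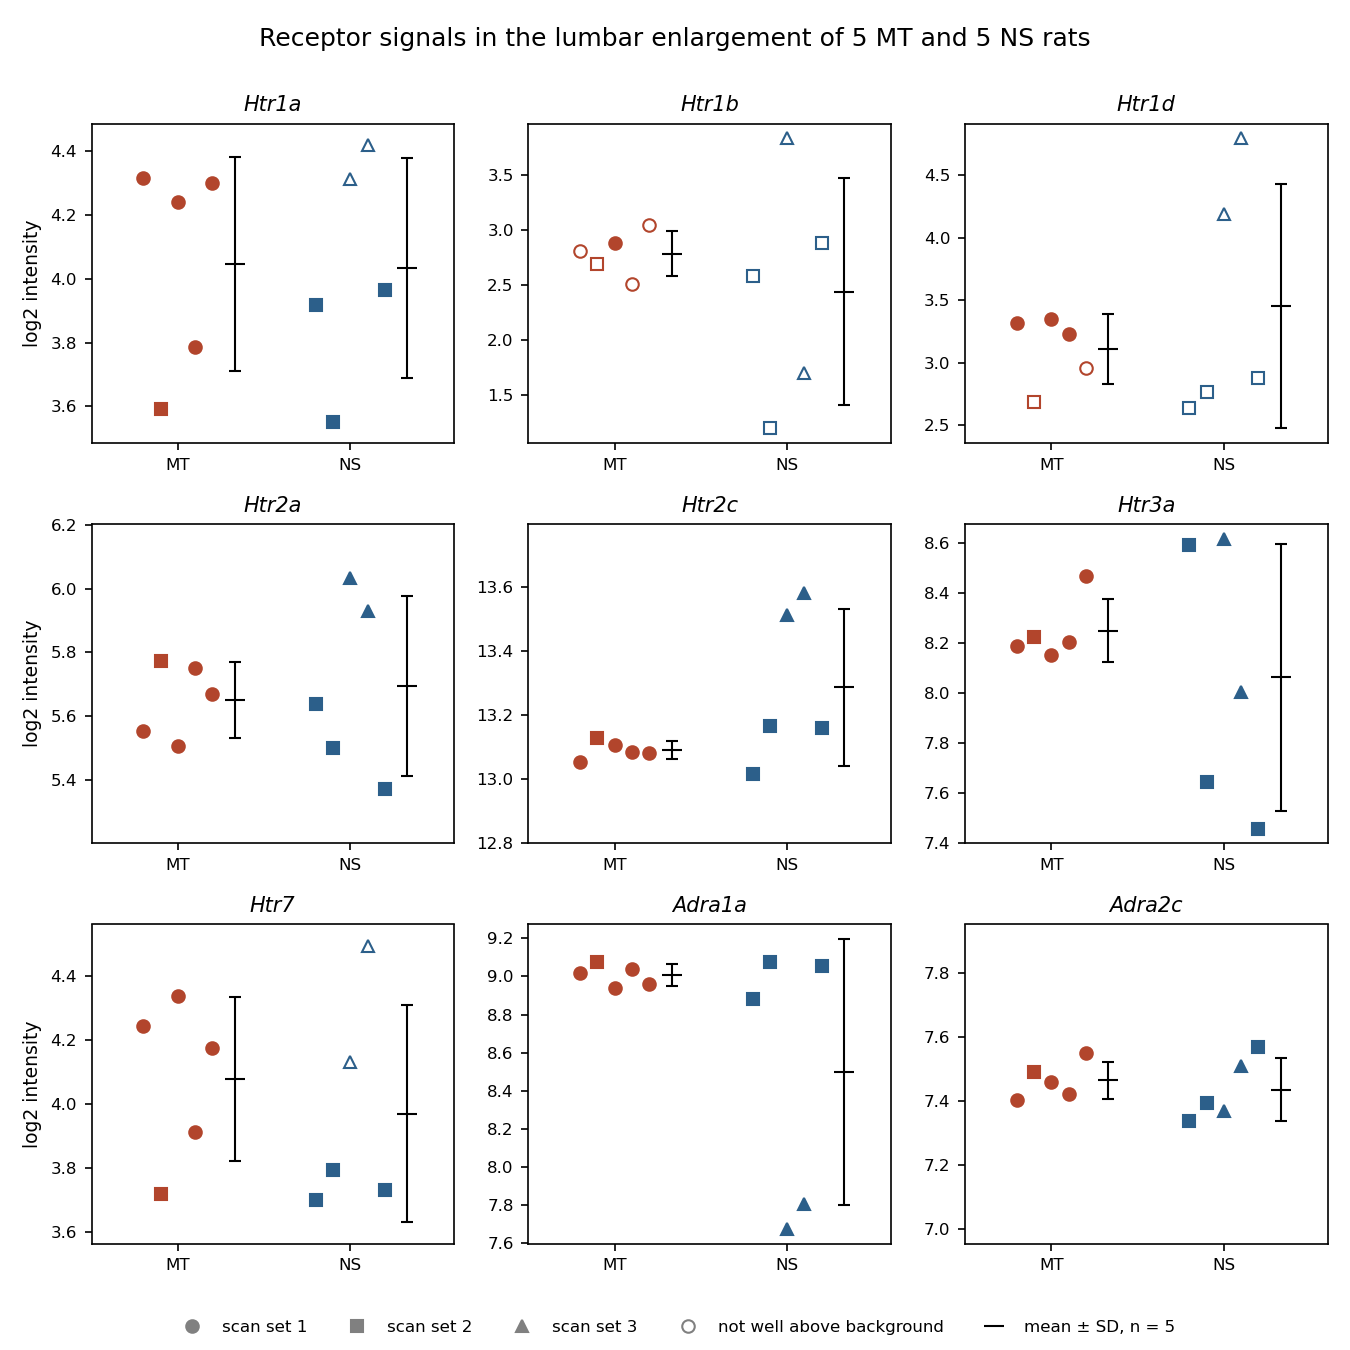
Quantile-normalized log2 intensity (vertical axis, a separate range for each receptor) in each of 5 MT and 5 NS rats (horizontal axis). Points are rats, marker shapes are scan sets, open points were not well above background, and bars are the mean ± SD with n = 5. Adra1a in NS8 and NS9 sat at 7.67 and 7.81, below the other 8 rats, while Adra2c stayed between 7.34 and 7.57 in all 10.

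Among the inhibitory serotonin receptors, Htr1a is found on brainstem serotonin neurons as an autoreceptor and on dorsal horn neurons as a postsynaptic receptor. Its log2 intensity was 4.31, 3.59, 4.24, 3.79 and 4.30 in MT1 to MT5, and 3.92, 3.55, 4.31, 4.42 and 3.96 in NS6 to NS10. These were dim signals that overlapped throughout, and those of NS8 and NS9, among the highest numbers of all, were not well above background. The means were 4.05 ± 0.34 in MT and 4.03 ± 0.34 in NS (SD, n = 5), and the log2 fold change was 0.01 with a standard error of 0.20 (95% interval −0.43 to 0.46, limma adjusted p = 0.979, exact permutation p = 0.944). The sign turned with the arrays used, from 0.24 without scan set 3 to −0.22 with the scan set as a block, and neither interval left out 0.

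Htr1b and Htr1d are release-limiting receptors on serotonin and sensory nerve terminals, and their human counterparts are the targets of triptans. Htr1b gave 2.81, 2.69, 2.88, 2.51 and 3.05 in MT1 to MT5 and 2.58, 1.20, 3.84, 1.70 and 2.89 in NS6 to NS10, on the log2 scale. The only array on which it was well above background was MT3. Htr1d gave 3.32, 2.69, 3.35, 3.23 and 2.96 in the MT rats, with MT1, MT3 and MT4 well above background, and 2.63, 2.76, 4.19, 4.80 and 2.88 in the NS rats, with none. Neither receptor was well above background on 5 or more arrays, so neither was tested and no fold is given. The higher numbers of NS8 and NS9 for Htr1d are numbers below background and carry no order.

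Htr2a and Htr2c, the receptors that act through phospholipase C, are carried by motor neurons and interneurons, where they raise excitability. Htr2a had log2 intensities of 5.55, 5.77, 5.51, 5.75 and 5.67 in MT1 to MT5 and 5.64, 5.50, 6.03, 5.93 and 5.37 in NS6 to NS10, all well above background. The MT rats spread over a range within that of the NS rats, whose 2 highest values were those of NS8 and NS9. The log2 fold change was −0.04 with a standard error of 0.13 (95% interval −0.34 to 0.25, limma adjusted p = 0.890, exact permutation p = 0.778). It was 0.15 without scan set 3 and 0.27 with the scan set as a block, where the interval ran from −0.04 to 0.59.

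Htr2c was bright in every rat, at 13.05, 13.13, 13.11, 13.08 and 13.08 in MT1 to MT5 and 13.01, 13.17, 13.51, 13.58 and 13.16 in NS6 to NS10. The 5 MT rats lay close together, and NS8 and NS9 lay above all the others. Means were 13.09 ± 0.03 in MT and 13.29 ± 0.25 in NS (SD, n = 5). The difference was −0.20 with a standard error of 0.11 (95% interval −0.44 to 0.05, unadjusted limma P = 0.108, limma adjusted p = 0.405, exact permutation p = 0.143). Without scan set 3 it was −0.02, with an interval of −0.17 to 0.12, and with the scan set as a block it was 0.02.

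Htr3a, the channel subunit through which serotonin excites dorsal horn neurons and sensory terminals directly, was at 8.19, 8.22, 8.15, 8.21 and 8.47 in MT1 to MT5. In NS6 to NS10 it was at 8.59, 7.64, 8.62, 8.00 and 7.46. The saline rats ranged over more than 1 log2 unit with all MT values inside that range, above NS7, NS9 and NS10 and below NS6 and NS8. NS7 and NS10, of scan set 2, were lowest, and NS6 of scan set 2 and NS8 of scan set 3 were highest. What lay behind this spread was not tested. Means were 8.25 ± 0.13 and 8.06 ± 0.53 (SD, n = 5), and the log2 fold change was 0.18 with a standard error of 0.22 (95% interval −0.32 to 0.68, limma adjusted p = 0.703, exact permutation p = 0.437). The estimate was 0.35 without scan set 3 and 0.33 with the block, and both intervals included 0. Its companion subunit Htr3b was well above background on 0 arrays.

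Htr7, which stimulates adenylyl cyclase and has been tied to spinal inhibition through local interneurons, was dim at 4.24, 3.72, 4.34, 3.91 and 4.18 in MT1 to MT5 and at 3.70, 3.79, 4.13, 4.49 and 3.73 in NS6 to NS10. NS8 and NS9 were not well above background although their numbers were the 2 highest among the saline rats. The MT minus NS difference was 0.11 with a standard error of 0.18 (95% interval −0.29 to 0.50, limma adjusted p = 0.787, exact permutation p = 0.595). Without scan set 3 it was 0.34, with an interval of 0.01 to 0.66 and an unadjusted limma P of 0.0457 (adjusted p = 0.265). In scan set 2 itself MT2, at 3.72, stood among NS6, NS7 and NS10, and the blocked estimate was −0.02.

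Adra1a, the excitatory receptor for noradrenaline on motor neurons and dorsal horn interneurons, was at 9.02, 9.08, 8.94, 9.04 and 8.96 in MT1 to MT5 and at 8.88, 9.07, 7.67, 7.81 and 9.06 in NS6 to NS10. The MT rats and 3 of the NS rats shared 1 range, and NS8 and NS9 stood more than 1 log2 unit below it. The group means were 9.01 ± 0.06 and 8.50 ± 0.70 (SD, n = 5), and the difference of 0.51 had a standard error of 0.28 (95% interval −0.13 to 1.14, unadjusted limma P = 0.104, limma adjusted p = 0.400, exact permutation p = 0.198). Without scan set 3 the difference was 0.004, with an interval of −0.16 to 0.17, and with the scan set as a block it was 0.07. Leaving out NS7 or NS10 instead raised it to 0.65 in either case, past the study's criteria with unadjusted limma P of 0.0470 and 0.0493, and these were the only settings that called any of the 7 receptors.

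Adra2c, an inhibitory receptor on spinal neurons and noradrenergic terminals, had the smallest standard error of the 7. It was at 7.40, 7.49, 7.46, 7.42 and 7.55 in MT1 to MT5 and at 7.34, 7.39, 7.37, 7.51 and 7.57 in NS6 to NS10. The groups covered nearly the same range, and NS8 and NS9 lay among the others. The log2 fold change was 0.03 with a standard error of 0.07 (95% interval −0.12 to 0.18, limma adjusted p = 0.851, exact permutation p = 0.579), and it was 0.03 without scan set 3 and 0.06 with the block. For the exact tests, all two-sided, every assignment of the rats to 5 and 5 was counted, and the smallest p possible was 0.00794.

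**Figure D2:**
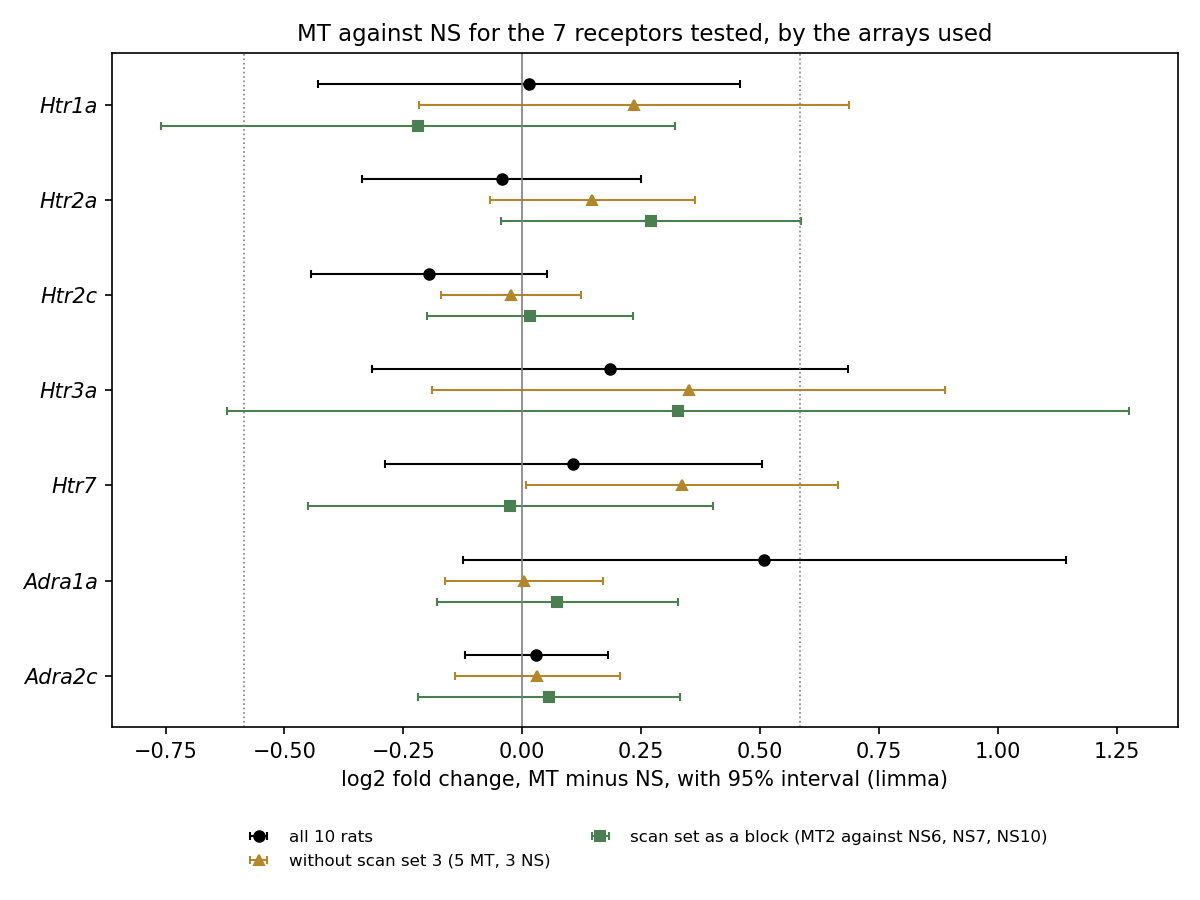
Log2 fold change, MT minus NS (horizontal axis), with its 95% limma interval for each of the 7 receptors tested (vertical axis), from all 10 rats, without scan set 3, and with the scan set as a block; dotted lines mark a 1.5-fold change. Adra1a moved from 0.51 to 0.004 when scan set 3 was left out, and Adra2c stayed between 0.03 and 0.06.

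The saline rats of scan sets 3 and 2 were also compared with each other for these 7 receptors. The NS mean holds both scan sets, so such a difference also enters the MT against NS difference. On the log2 scale Adra1a was lower by 1.26 in NS8 and NS9, and 5.85% of all RNAs fell as far or farther in that direction. The serotonin receptors tested all had higher numbers there, Htr7 by 0.57, Htr1a by 0.55, Htr2a by 0.48, Htr2c by 0.43 and Htr3a by 0.41. For each, 8.9% to 15.2% of all RNAs were at least as high. Htr7 and Htr1a were not well above background in NS8 and NS9, so their differences rest on numbers below background. Adra2c differed by 0.01. The mean log2 level of some marker lists also set NS8 and NS9 apart. That of vascular smooth muscle markers was 10.27 to 10.34 in NS8 and NS9 against 10.78 to 10.85 in the other NS rats. Inhibitory dorsal horn neuron markers were at 11.09 to 11.18 against 10.95 to 11.03. Astrocyte markers were at 13.89 to 13.99 against 14.02 to 14.11. For the other lists except skeletal muscle the ranges overlapped, among them neurons (11.99 to 12.02 against 11.91 to 12.11), motor neurons and microglia. Only 2 vascular smooth muscle markers were measured. Of 3 skeletal muscle markers, Ckm differed between MT and NS by 1.75 on the log2 scale and by 0.15 without scan set 3, while Acta1 (0.02 and 0.08) and Myh1 (0.08 and 0.16) differed little either way. Their part in the receptor values was not tested.

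**Figure D3:**
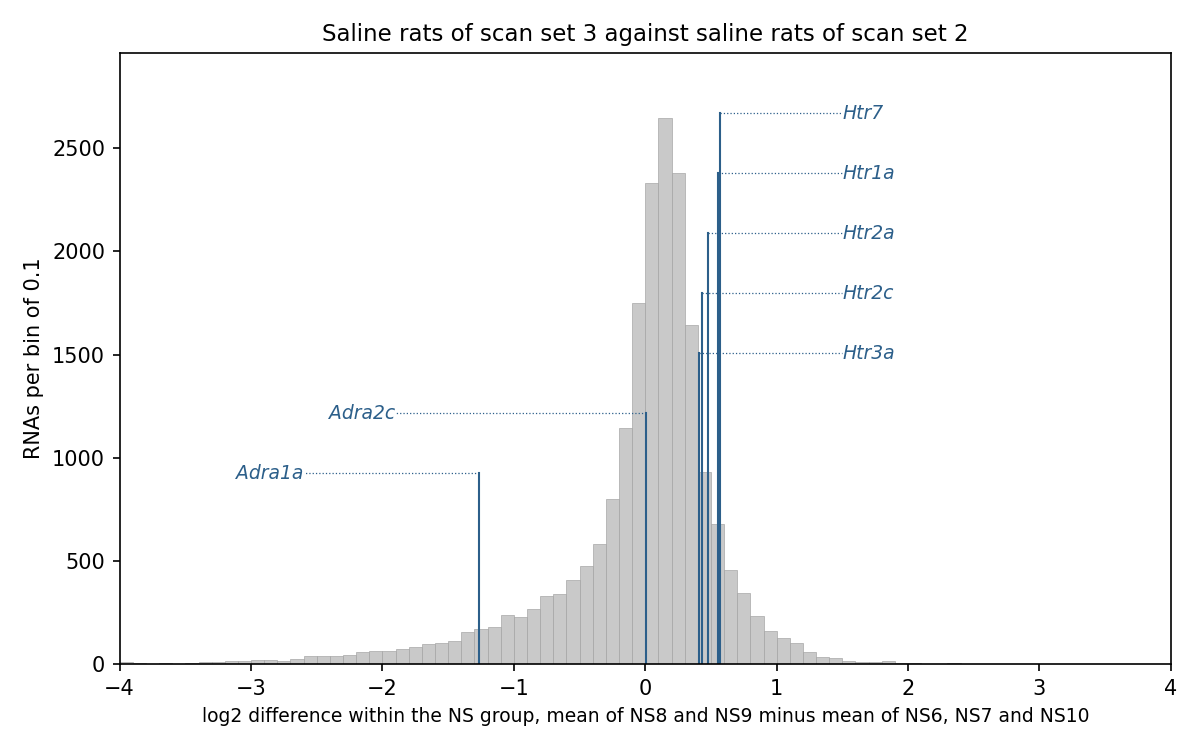
Number of RNAs (vertical axis, bins of 0.1) by log2 difference between the mean of NS8 and NS9 and the mean of NS6, NS7 and NS10 (horizontal axis), with the 7 receptors marked. Adra1a lay at −1.26 in the left tail, Adra2c near the centre at 0.01 and the 5 serotonin receptors between 0.41 and 0.57. Htr1a and Htr7 were not well above background in NS8 and NS9.

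The other receptors of both transmitters were measured on the same arrays. Of the other serotonin receptors, Htr1f, Htr2b, Htr5a and Htr6 were tested and none passed the criteria, while Htr4 like Htr3b was well above background on 0 arrays. Their log2 fold changes were 0.01, 0.01, −0.28 and −0.15, with limma adjusted p from 0.638 to 0.984. Htr5a was well above background on 8 arrays, and its difference was −0.69 without scan set 3, past the criteria at an unadjusted limma P of 0.0149, and −0.004 with the scan set as a block. Values are given for 5 of the other adrenergic receptors, none of which passed: Adra1b (−0.07), Adra1d (−0.15), Adra2b (0.09), Adrb1 (−0.03) and Adrb3 (−0.02), with limma adjusted p from 0.579 to 0.973. Adrb3 and Htr1f were dim and well above background on 8 arrays each. Without scan set 3 Adrb3 was at 0.38, with an unadjusted limma P of 0.0148 and a fold under 1.5, and Htr1f was at 0.16. With the scan set as a block they were at 0.47 and 0.36.

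Markers of other cell types were read on the same arrays. All 4 microglial markers (Cx3cr1, P2ry12, Tmem119 and Aif1) had negative log2 fold changes with a median of −0.42, 1 of them, Tmem119 at −1.24, passed the study's criteria, and their mean log2 level ran from 11.11 to 11.74 in MT against 11.64 to 12.13 in NS. Of the neutrophil markers, S100a8 was higher in MT by 1.44, past the criteria, and Fcnb differed by 0.24. The mean level of 6 neuronal markers was 12.13 to 12.24 in MT and 11.91 to 12.11 in NS, without overlap. No other marker list separated the groups, and none of the 6 passed the criteria. Their log2 fold changes ran from −0.01 for Nefl to 0.45 for Eno2. The median was 0.19, and it was 0.22 without scan set 3 and 0.12 with the scan set as a block. The part of these cell types in the values of the receptors was not tested.

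Around the receptors, 64 RNAs of 57 genes are reported in 6 lists, and 2 of these 64 passed the study's criteria, a share of 3.12% beside 2.73% of all RNAs. At an unadjusted limma P below 0.05 there were 8, or 12.5%, beside 16.4% of all RNAs, and at an adjusted limma p below 0.05 there was none of the 64. Those past the criteria were Kcnj5 and Kcnj9. Both encode subunits of the inwardly rectifying potassium channels that inhibitory receptors open through G protein beta-gamma subunits, and they moved in opposite directions.

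Kcnj5 was at log2 intensities of 8.27, 7.99, 8.61, 8.10 and 8.06 in MT1 to MT5 and 8.68, 9.16, 9.18, 9.14 and 8.52 in NS6 to NS10. The groups overlapped only through MT3, which lay above NS10. The log2 fold change was −0.73 with a standard error of 0.17 (limma adjusted p = 0.106, exact permutation p = 0.0159), and it was −0.80 with the scan set as a block and −0.58 without scan set 3. Kcnj9 was at 6.05, 5.96, 5.89, 6.22 and 6.03 in the MT rats and 5.68, 5.19, 4.87, 4.92 and 5.69 in the NS rats. The lowest MT rat lay above the highest NS rat, with NS8 and NS9 lowest and NS9 not well above background. The log2 fold change was 0.76 with a standard error of 0.17 (limma adjusted p = 0.106, exact permutation p = 0.00794), falling to 0.51 without scan set 3 and to 0.44 with the block, both under a 1.5-fold change. The remaining channel subunits of this kind, Kcnj3 (0.07) and Kcnj6 (0.11), did not pass.

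**Figure D4:**
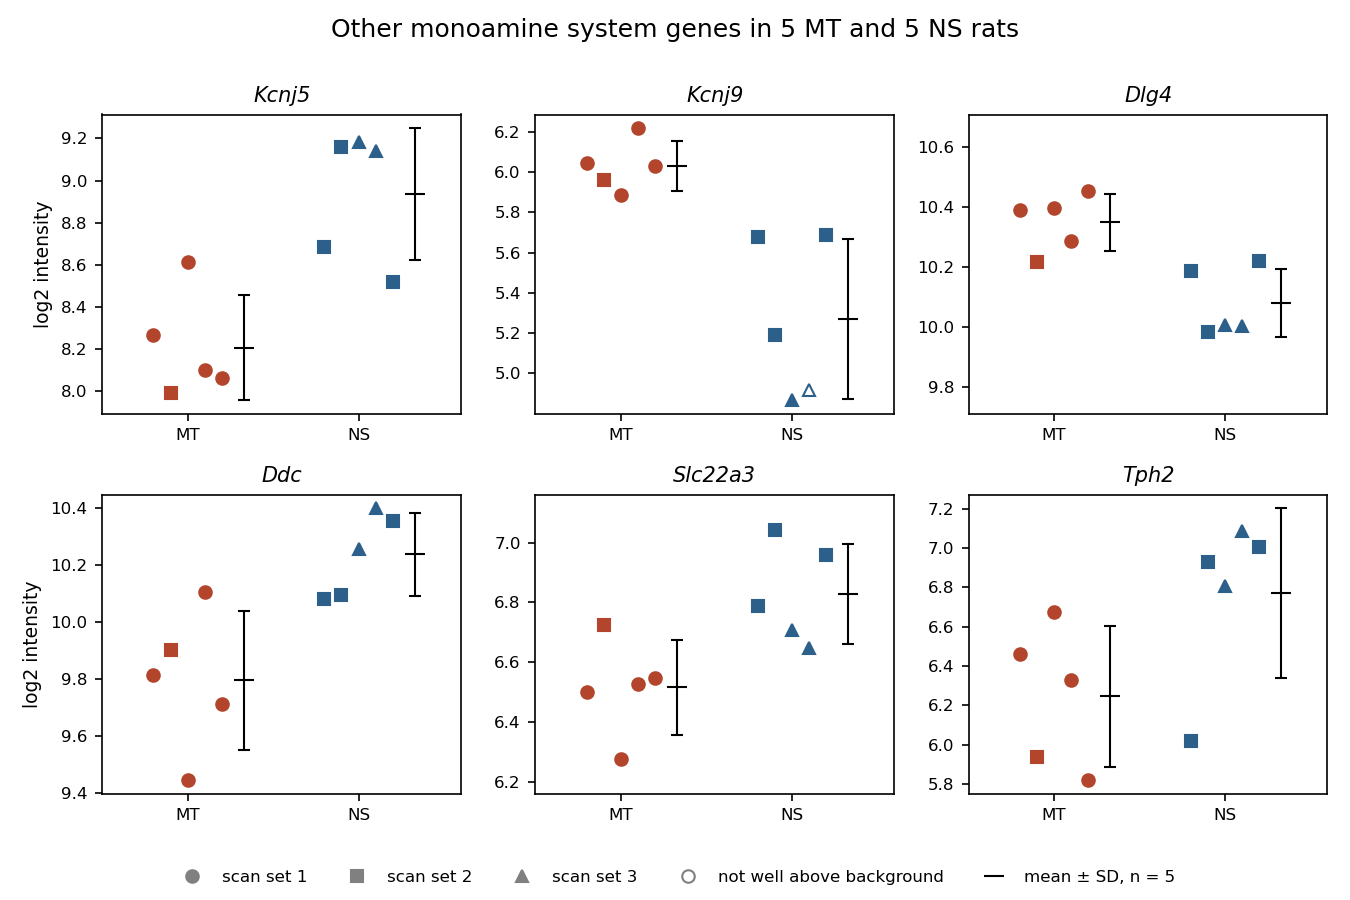
Quantile-normalized log2 intensity (vertical axes, separate ranges) of 6 further genes of the monoamine system in 5 MT and 5 NS rats (horizontal axis), with scan sets, background flags and mean ± SD drawn as for the receptors. Kcnj9 separates the groups, and Kcnj5, Dlg4, Ddc, Slc22a3 and Tph2 overlap in 1 or more rats.

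Of the genes for monoamine synthesis, transport and breakdown, 9 are reported and none of them passed the criteria, since no fold reached 1.5. The median log2 fold change of the 9 was −0.31, and it was −0.28 without scan set 3 and −0.03 with the scan set as a block. Of the 9, 3 were above 0, namely Th (0.15), Slc18a1 (0.16) and Slc6a2 (0.06). Ddc, the decarboxylase that completes the synthesis of serotonin and dopamine, ranged from 9.44 to 10.10 in MT and from 10.08 to 10.40 in NS (−0.44, standard error 0.12, limma adjusted p = 0.154), a difference of −0.38 without scan set 3 and −0.28 with the block. Slc22a3, a low-affinity transporter that clears monoamines, ranged from 6.28 to 6.72 in MT and from 6.65 to 7.04 in NS (−0.31, standard error 0.10, limma adjusted p = 0.201), with −0.41 and −0.21 in the same 2 fits. Tph2, the neuronal enzyme that begins serotonin synthesis, was at 6.46, 5.94, 6.68, 6.33 and 5.82 in MT1 to MT5 and 6.02, 6.93, 6.81, 7.09 and 7.01 in NS6 to NS10. The 5 MT rats lay below 4 of the NS rats, and NS6 stood among the MT rats. The log2 difference was −0.52 with a standard error of 0.23 (limma adjusted p = 0.299, exact permutation p = 0.0794), and leaving out NS6 or MT3 took it past the study's criteria, to −0.71 and −0.63. It was −0.41 without scan set 3, −0.34 with array weights and −0.71 with the block, each at an unadjusted limma P above 0.05, and the unadjusted P was below 0.05 under 10 of 23 alternatives.

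The next lists held the proteins that carry the receptors' signals into the cell. None of 11 RNAs for coupled G protein subunits passed the criteria, and the 3 with the smallest P were Gnao1 (0.28), Gnas (−0.19 for 1 of its 3 RNAs) and Gnai3 (−0.10), at limma adjusted p of 0.430, 0.485 and 0.536. None of 16 RNAs for receptor partners, the kinases, arrestins and scaffold proteins that bind these receptors, passed either. Dlg4, a postsynaptic scaffold that binds Htr2a and Htr2c, was at 10.22 to 10.45 in MT and 9.98 to 10.22 in NS, a log2 difference of 0.27 with a standard error of 0.08 (limma adjusted p = 0.158, exact permutation p = 0.0159). It was 0.22 without scan set 3 and 0.09 with the block (unadjusted limma P 0.477). S100a10, which binds serotonin receptors and brings them to the membrane, differed by 0.21, and Grk2, a receptor kinase, by −0.24, at limma adjusted p of 0.383 and 0.391. With the block Gnao1 was at −0.01, S100a10 at 0.34 and Grk2 at 0.07.

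**Figure D5:**
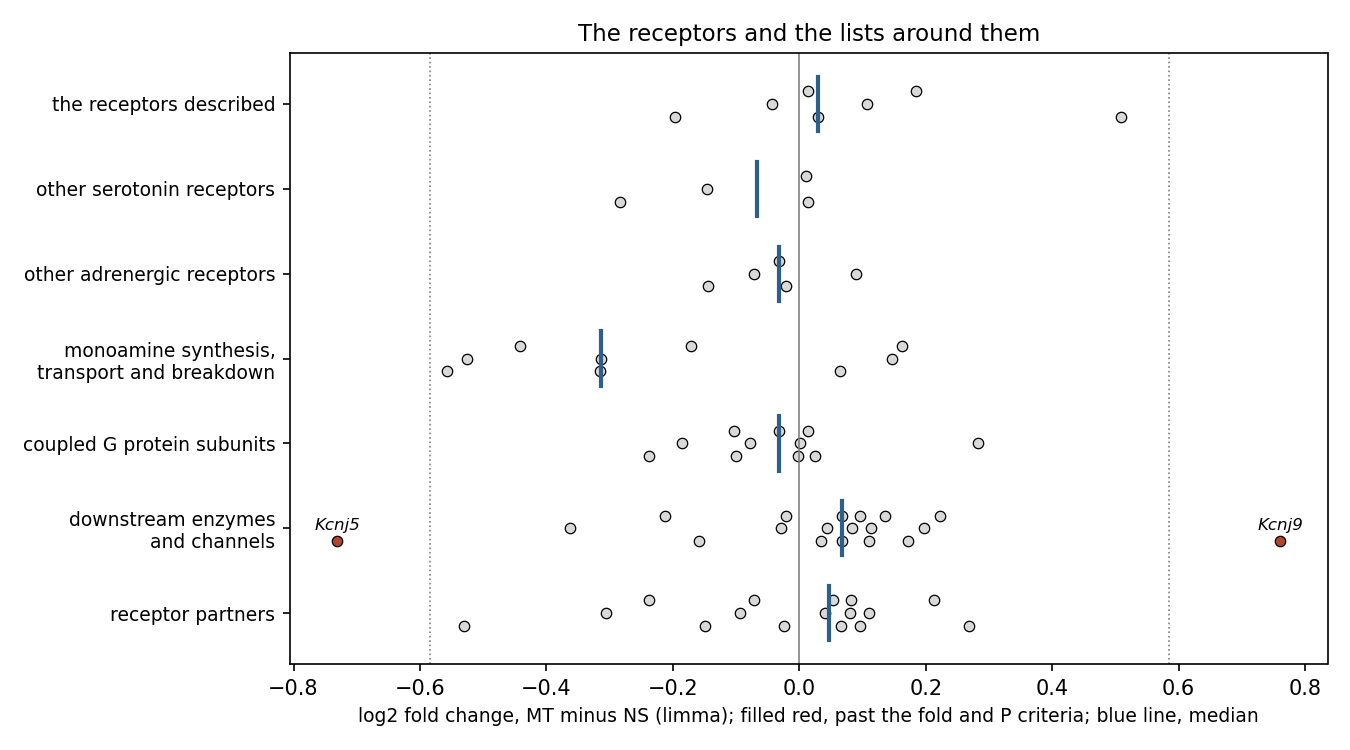
Log2 fold change, MT minus NS (horizontal axis), of the RNAs reported from 7 gene lists (vertical axis), beginning with the receptors described here. Red points passed the study's criteria, dotted lines mark a 1.5-fold change and blue lines are list medians. Kcnj5 (−0.73) and Kcnj9 (0.76) lay outside the dotted lines, and the 7 receptors did not.

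For the 5 receptors well above background on all 10 arrays, the mRNAs whose pattern was most like theirs were sought among 13315, by Pearson r over the 10 arrays after each value was centred on the mean of its scan set. Among the highest 2 were Ttpal (0.96) for Htr2a, Vom2r17 (0.97) and Slc34a2 (0.96) for Htr2c, Kcnh3 (0.96) and Acox2 (0.96) for Adra1a, and C19h19orf53 (0.99) and Gabrq (0.97) for Adra2c. For Htr3a they were an mRNA with no symbol in the annotation used (0.98) and Ecel1 (0.98). These are the top of a long ranking over few arrays that share scan sets, and are given as a description.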

How the data were processed

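Total RNA of the lumbar enlargement of 5 MT and 5 NS rats was hybridized to single-colour rat lncRNA arrays, 1 per rat. Per the labels, the authors removed rRNA and made the labelled cRNA by random priming. The authors extracted the spots with Agilent Feature Extraction 11.0.1.1 and deposited background-subtracted and median intensities on a linear scale, with flags, together with 1 table holding log2 intensities after quantile normalization (medians 6.83 to 6.84, r of 0.993 to 0.999 with the values used here over 24484 probes; its steps beyond quantile normalization are not given in the sources used here). Here, outlier spots were left out of the scanner output, quantile normalization was applied to the log2 intensities (floor 1) in limma 3.58.1 under R 4.3.3 with data.table version 1.17.8, and values were averaged over the spots of a probe and then over the probes of an RNA. Probes stayed in where 5 or more arrays had over 50% of the spots well above background. MT was compared with NS by limma over all 20259 RNAs, with Benjamini-Hochberg adjustment over all of them. The study words its cut as a log2 fold change above 1.5, but the folds it lists read as linear. For the study's criteria, the fold was therefore taken as linear, above 1.5, and P as unadjusted limma P, below 0.05. The number of arrays limits the precision. Each rat is a separate animal, and replicate numbers are not shared between groups.

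Symbols and promoters came from RefSeq on GRCr8 (14274 of 15323 mRNA probes matched), while the array was designed on an older build, so probe positions are not given. Named genes were the 10 receptors, in each list the genes past the criteria or otherwise the 3 with the smallest P, every serotonin or adrenergic receptor, and the 2 mRNAs most like each bright receptor. Some genes of the lists are not reported here and are left out of the list counts. The receptors and lists were chosen with earlier results of these data known. Alternatives were 75th percentile scaling, normexp correction with offset 50 (on median signals, since no mean signal was at hand), the deposited table, no filter or a filter on all 10 arrays, outlier spots kept, the methods' t-test, a variance trend, array weights, a fixed or a random block for the scan set, probes fitted singly, leaving out scan set 3 and leaving out each rat. Scripts were tested on simulated data. Plots used matplotlib 3.10.9 and Python 3.11.15.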

Additional observations from a re-analysis of the deposited data

Results flagged for a closer look

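In 3 of 58 groups of 5 rats, over the receptors and the other genes named, 1 rat stood apart from the other 4; chance alone sets apart about 1 group in 20. Htr3a was 8.47 on the log2 scale in MT5, where the nearest MT rat was at 8.22. Tph2 was 6.02 in NS6, below the nearest NS rat at 6.81 and within the MT range. Adra1b was 10.77 in MT5, below the nearest MT rat at 11.04.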

How the results depend on the processing

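Under 23 alternatives none of the 7 receptors reached an adjusted p below 0.05, and none passed the study's criteria except Adra1a without NS7 and without NS10, so leaving out single rats gave 0 to 1 receptors called. The directions of Htr3a, Adra1a and Adra2c were kept in all 23. Htr2a turned from −0.04 to 0.14 with 75th percentile scaling, 0.0741 with array weights, 0.271 and 0.0783 with the scan set as a fixed and a random block, and 0.15 without scan set 3, and leaving out single rats gave −0.125 to 0.041 (above 0 without NS8 and without NS9). Htr1a was 0.45 with 75th percentile scaling (unadjusted limma P 0.0817), turned to −0.22 and −0.13 with the fixed and the random block, and leaving out single rats gave −0.11 to 0.13. Htr7 turned to −0.0169 with normexp correction and −0.0247 with the fixed block, and Htr2c to 0.0157 with the fixed block. The 75th percentile gave Htr7 0.53 at an unadjusted limma P of 0.0464, and leaving out NS6 gave Htr2c −0.26 at 0.0318. The number of other monoamine system genes reported past the criteria was 2 (Kcnj5 and Kcnj9), 1 (Kcnj5) with normexp correction, with the filter on all 10 arrays and with the fixed block, and 1 without scan set 3, where it was Htr5a (−0.692) in place of both. Array weights gave 3, and leaving out single rats gave 2 to 3. Kcnj9 (0.32) with normexp correction, and Kcnj9 (0.51) and Kcnj5 (−0.58) without scan set 3, fell under a 1.5-fold change. The cause of these changes was not tested. With the filter on all 10 arrays Htr1a, Htr7 and Kcnj9 had no value. The fixed block compares 1 MT rat with 3 NS rats, the lone rat being assumed to vary like the rest. Low signal over background limits Htr1a, Htr1b, Htr1d and Htr7.

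No paired analysis was possible because the replicate numbers of the groups, 1 to 5 and 6 to 10, are not shared.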

Other observations

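Plcb4 and Adcy6, which the rule for naming genes left out and which were chosen after their values were seen, also had an unadjusted limma P below 0.05 and a fold under 1.5. Plcb4, a phospholipase C of the calcium pathway, differed by 0.20 (interval 0.06 to 0.34, limma adjusted p = 0.188), and Adcy6, an adenylyl cyclase, by 0.22 (interval 0.003 to 0.44, limma adjusted p = 0.301). Without scan set 3 they differed by 0.21 and 0.26, at unadjusted limma P of 0.0168 and 0.0615. With the scan set as a block the differences were 0.15 and 0.10. Slc18a2, the vesicular monoamine transporter, averaged 3.64 in MT and 4.20 in NS, was dim and differed by −0.56 (interval −1.25 to 0.14, limma adjusted p = 0.400), and by −0.03 with the scan set as a block.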
